A study of Rattus norvegicus with 44 samples.

Results

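Blood drawn 3 h after environmentally-induced hyperthermia (EIH), in which rats are made hyperthermic by a hot environment, was compared with blood of saline controls killed at the same time. The rule took the 4 single-colour Agilent arrays labelled as EIH blood at 3 h and the 4 labelled as control blood at 3 h, which makes 8 of the 44 arrays of the series. All rats were male Sprague-Dawley rats of the NCTR strain, 3 months old, with no transgene or deletion named. Each blood array held the trunk blood of 1 rat, collected at decapitation. A tissue label of the blood samples names the striatum, a brain region, while the protocol describes trunk blood. Other arrays serve for contrast, namely blood 3 h after neurotoxic doses of amphetamine (AMPH), EIH and saline blood at 1 day, and choroid plexus at 3 h after EIH or saline. Each choroid plexus array is a pool of 3 rats. Blood at 1 day after AMPH, and choroid plexus after AMPH or at 1 day after EIH, enter only the estimate of spread. The source labels of the choroid plexus pools at 1 day say EIH, while their titles say control, and some rat numbers repeat between these pools. By their labels, all 4 EIH blood rats and all 4 saline blood rats also gave choroid plexus to a pool of their own group. The study asked how choroid plexus and blood respond to heat and amphetamine, including their immune responses.

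Whole blood RNA comes from reticulocytes, platelets, granulocytes, monocytes and lymphocytes. When proteins unfold in the heat, heat shock factor 1 trimerises, binds heat shock elements in promoters and raises transcription of chaperone genes, while immediate early transcription factors are induced by many kinds of stress. Stress hormones are known to move neutrophils into the circulation and lymphocytes out of it within hours. In such bulk samples, fewer cells of a type and less RNA per cell cannot be told apart.

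Values are log2 of the deposited intensity, 1 probe for each gene (the brightest over the series), and differences are EIH minus saline with their standard error (SE). A gene was called where limma's moderated test gave an adjusted p under 0.05 over all genes tested. The arrays had median intensities of 139 to 146 in the EIH group, against 140 to 142 in the saline group. Blank cells made up 6.03% of EIH values and 9.26% of saline values. Blood markers were bright: Alas2, the heme synthesis enzyme of red cell precursors, stood at the upper end of the scale (log2 of at least 15.9, with a maximum of 16) on all 8 arrays. The neuron and glia list had a mean log2 intensity of 5.15 to 6.15 in EIH rats, against 5.26 to 5.68 in saline rats, so defining genes of brain tissue were dim. Correlations between arrays were 0.894 to 0.923 among EIH rats and 0.935 to 0.954 among saline rats, and 0.868 to 0.906 between the groups. The median SD of a gene was 0.441 in the EIH group, against 0.305 in the saline group. No label says whether the rats were treated on 1 or on several occasions. The p-values of this comparison rest on the spread between rats within the groups of all 24 blood arrays, moderated across genes. They do not measure the spread of these 8 arrays alone. With 4 arrays a group their number limits the precision.

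Of 10412 genes measured, 9893 had at least 2 values in each group and were tested. In EIH blood 557 genes (5.63%) were higher and 693 (7.0%) lower, together 1250 or 12.6%. By size, 436 of the higher and 407 of the lower genes differed at least 2-fold, and at least 8-fold differences were found for 43 higher genes and 11 lower genes. All 4 EIH values lay above every saline value for 515 of the higher genes, and below every saline value for 657 of the lower ones. Over all genes tested, such separation occurred in 1194 genes (12.1%) upward and 1287 genes (13%) downward. The median difference over all genes was 0.08. The volcano plot shows heat shock genes at its right edge and a dense band of falls of moderate size.

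**Figure D1:**
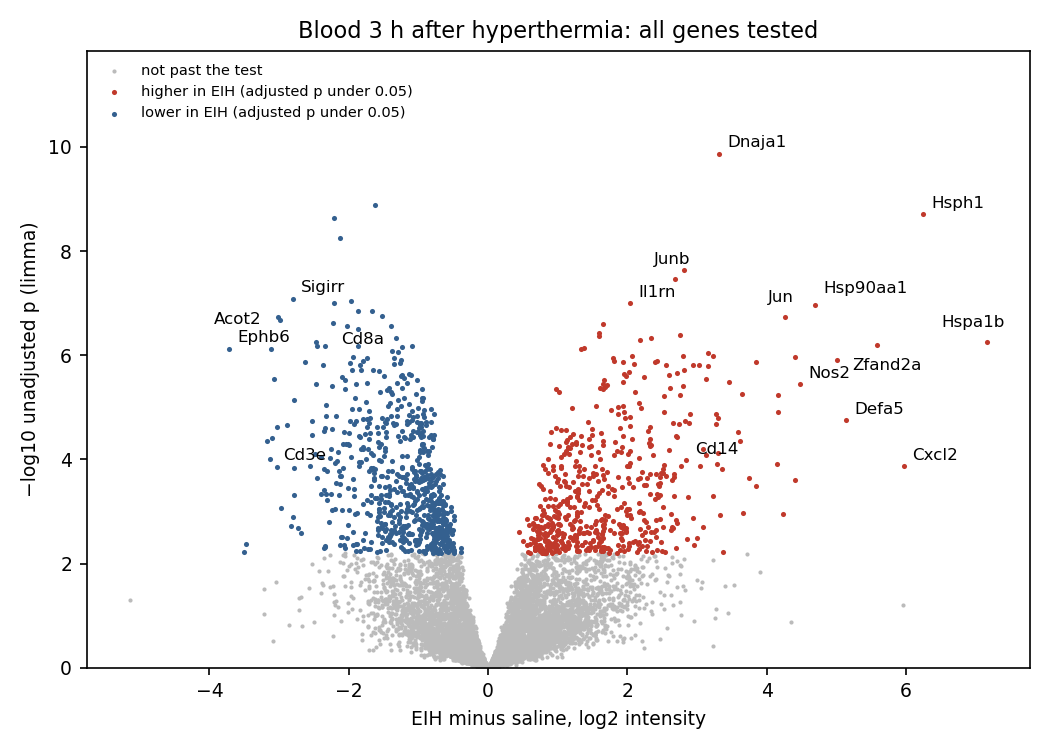
Each point is 1 of 9893 genes, with the EIH minus saline difference in log2 intensity on the x axis and -log10 of the unadjusted limma p on the y axis; red and blue mark the 557 higher and 693 lower genes. Hspa1b and Hsph1 lie farthest right, and Ephb6 farthest left among the labelled genes.

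Genes were ranked by size among called genes without overlap and with at least 3 values a group, predicted loci left out. In this ranking the 2 largest rises were cytosolic chaperones. Hspa1b, the stress-inducible Hsp70, read 14.37, 15.94, 15.99 and 15.98 in EIH rats, against 6.07, 11.98, 8.09 and 7.51 in saline rats, with 3 of the EIH values at the upper end of the scale. The saline rats were widely spread, with replicate 2 far above the others, yet no saline value reached an EIH value. The measured difference was 7.16 ± 0.99 (adjusted p = 0.000178), and because 3 EIH arrays stood at the upper end of the scale it may understate the difference and no fold is given. Another probe for Hspa1b differed by 1.49, and Hspa1a, a nearly identical gene copy, was not tested separately, so the probe may read both copies. Hsph1, the Hsp110 that exchanges nucleotide on Hsp70, was at 10.94, 13.71, 13.94 and 13.71 in EIH rats, against 6.50, 7.58, 6.81 and 6.43 in saline rats. Its EIH values stood far above all saline values, with EIH replicate 1 the lowest, and the difference was 6.24 ± 0.61 (75.8-fold (95% interval 31.4 to 183), adjusted p = 5.8e-06). Hspa8, the constitutive Hsc70, was bright in every rat (13.51, 14.60, 14.57 and 14.17 in EIH rats, against 11.95, 12.30, 12.02 and 11.88 in saline rats) and was higher by 2.18 ± 0.30 (adjusted p = 0.000176). Hspa12a, a distant Hsp70 relative, rose by 1.48 ± 0.42 with overlapping groups. Of the 13 tested members of the Hsp70 and Hsp110 list 4 rose, 8 were not called and 1 fell, and the list's median difference was 0.82, against 0.08 over all genes. The member that fell was Hspa14 (-0.62 ± 0.17), a ribosome-associated Hsp70, with all 4 EIH values below the saline range.

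The promoter windows of some chaperone genes are shown because the heat shock element is the sequence through which heat shock factor 1 acts. All windows shown hold a match to it, while other higher chaperone genes, named below, had none. Each window runs from 250 bases before the gene's start to 50 bases after it, from RefSeq, build GRCr8, and capitals mark matches to a 13-base form of the element, in which GAA, TTC and GAA (or TTC, GAA and TTC, the reverse complement) follow each other with NN, any bases, between them. Shown are Hsph1 (chr12:10427118-10427417, plus strand), Dnaja1 (chr5:60638154-60638453, plus strand), Hspa8 (chr8:50080264-50080563, plus strand) and Hspe1 (chr9:64084077-64084376, plus strand).
Hsph1: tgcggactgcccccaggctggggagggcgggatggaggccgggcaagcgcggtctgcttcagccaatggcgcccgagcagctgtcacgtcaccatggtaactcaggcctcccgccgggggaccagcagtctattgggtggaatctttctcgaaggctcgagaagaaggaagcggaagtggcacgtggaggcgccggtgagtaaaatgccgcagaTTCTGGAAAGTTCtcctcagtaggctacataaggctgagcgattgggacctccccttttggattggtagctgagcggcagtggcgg
Dnaja1: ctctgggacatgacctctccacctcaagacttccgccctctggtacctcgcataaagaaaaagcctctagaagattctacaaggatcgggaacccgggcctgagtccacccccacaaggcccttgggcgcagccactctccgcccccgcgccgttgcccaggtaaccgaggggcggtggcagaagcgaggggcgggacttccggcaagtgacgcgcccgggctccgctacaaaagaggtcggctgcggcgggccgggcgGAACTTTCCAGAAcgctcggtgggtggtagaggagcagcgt
Hspa8: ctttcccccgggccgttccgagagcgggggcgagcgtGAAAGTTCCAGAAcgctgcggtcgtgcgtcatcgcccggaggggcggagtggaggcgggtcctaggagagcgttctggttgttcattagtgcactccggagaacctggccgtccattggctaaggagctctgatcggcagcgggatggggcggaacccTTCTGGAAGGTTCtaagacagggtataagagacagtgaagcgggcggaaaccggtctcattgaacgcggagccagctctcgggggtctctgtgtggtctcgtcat
Hspe1: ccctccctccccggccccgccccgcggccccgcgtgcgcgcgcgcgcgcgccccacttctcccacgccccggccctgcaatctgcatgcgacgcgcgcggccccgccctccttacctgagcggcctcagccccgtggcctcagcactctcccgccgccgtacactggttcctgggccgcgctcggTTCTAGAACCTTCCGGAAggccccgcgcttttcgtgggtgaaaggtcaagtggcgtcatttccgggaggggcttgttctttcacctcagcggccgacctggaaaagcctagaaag

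The first base of the match lies 36 bases before the start of Hsph1, 65 before that of Hspe1, and 213 and 55 before that of Hspa8. In Dnaja1 it lies inside the transcribed part. In Hspe1 the capitals hold overlapping matches on both strands, and the window shares 211 bases with that of Hspd1, its partner gene on the opposite strand. The motif occurs in 267 of 33469 rat promoter windows (0.798%) and in 44 of the 8117 tested genes with a window (0.542%). It was found in 13 of 444 genes higher in EIH blood (2.93%) and in 2 of 589 lower genes (0.34%). Within the chaperone lists it was present in 7 of 17 higher genes with a window (41.2%), and in 1 of 41 genes that were not called higher (2.44%), which was Cct4. The stretch shared by Hspe1 and Hspd1 counts for both genes. The higher chaperone genes whose window held no match were Zfand2a, Hspb1, Stip1, Dnajb1, Bag3, Ahsa2, Hsp90ab1, Fkbp4, Tcp1 and Dnaja4. The 13 higher genes with the motif were Hsph1, Dnaja1, Hspa8, Hspe1, Hspd1, Chordc1, Serpinh1, Sod1, Bst2, Osgin1, Csf3r, Clec4d and Crispld2. These shares are descriptions of letters in a fixed window.

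In the list of Hsp90 and its cochaperones 6 of 14 tested members rose, 1 fell and 7 were not called, with a median of 0.48. Hsp90aa1, the inducible cytosolic Hsp90, had values of 12.72, 14.90, 15.21 and 14.84 in EIH rats, against 9.42, 10.25, 9.69 and 9.53 in saline rats. The lowest EIH value exceeded the highest saline value, and the difference was 4.69 ± 0.59 (25.9-fold (95% interval 11.1 to 60.4), adjusted p = 9.07e-05). Hsp90ab1, its constitutive counterpart, rose by 2.32 ± 0.46. Stip1, which links Hsp70 to Hsp90, was nearly constant in saline blood (10.57, 11.90, 11.57 and 11.13 in EIH rats, against 8.19, 8.34, 8.27 and 8.21 in saline rats) and rose by 3.04 ± 0.65 (adjusted p = 0.00352). Fkbp4, a steroid receptor cochaperone, rose by 2.29 ± 0.43, Ahsa2, related to the Hsp90 activator Aha1, by 2.32 ± 0.44, and Chordc1, an Hsp90-binding protein, by 1.65 ± 0.32. Stub1, the ubiquitin ligase that marks chaperone clients for degradation, fell by 0.71 on the log2 scale (adjusted p = 0.0137).

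Among the J-domain proteins, which feed clients to Hsp70, Dnaja1 gave the smallest p of all genes. It measured 14.31, 15.38, 15.62 and 15.18 in EIH rats, against 11.66, 12.17, 11.80 and 11.61 in saline rats. The saline rats lay within a narrow band and the groups were far apart, and the difference was 3.31 ± 0.28 (9.92-fold (95% interval 6.65 to 14.8), adjusted p = 1.32e-06). Dnajb1, the classical partner of inducible Hsp70, stood at 11.47, 13.06, 12.96 and 12.61 in EIH rats, against 9.73, 9.89, 9.51 and 9.22 in saline rats and rose by 2.94 ± 0.44 (adjusted p = 0.00022). Bag3, a nucleotide exchange factor that also steers clients to autophagy, rose by 2.90 ± 0.51, and Dnaja4 by 0.80 ± 0.21. These were the 4 that rose of 19 tested members of the list, none fell, and the median was 0.32.

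Hspd1 and Hspe1 form the mitochondrial chaperonin and its lid, and they are transcribed from a shared region. Hspd1 read 11.31, 13.64, 13.73 and 12.86 in EIH rats, against 9.27, 9.63, 8.96 and 9.07 in saline rats. Hspe1 read 13.03, 14.97, 15.16 and 14.92 in EIH rats, against 11.68, 11.89, 11.79 and 11.71 in saline rats. For both, EIH replicate 1 was lowest in its group and still above all saline rats, and the differences were 3.65 ± 0.60 and 2.75 ± 0.45 (adjusted p = 0.00045 and 0.000459). Of the cytosolic chaperonin subunits only Tcp1 was called (1.04 ± 0.29), so 3 of 12 list members rose. Hspb1, a small heat shock protein that holds unfolded proteins, had 11.06, 12.14, 11.97 and 11.97 in EIH rats, against 6.39, 8.00, 7.45 and 8.64 in saline rats. All EIH rats were above all saline rats, which were widely spread, and the difference was 4.16 ± 0.68 (17.9-fold (95% interval 6.67 to 48.2), adjusted p = 0.000459). Zfand2a, a proteasome-associated zinc finger protein induced by arsenite, was at 9.67, 12.73, 13.28 and 12.65 in EIH rats, against 6.65, 7.20, 6.56 and 5.57 in saline rats and rose by 5.59 ± 0.78 (48.1-fold (95% interval 15.5 to 149)). Serpinh1, the collagen chaperone, rose by 1.37 ± 0.40. Hsf1 itself, the factor that drives the response, was lower in all EIH rats (9.65, 9.70, 9.60 and 9.33 in EIH rats, against 10.22, 10.11, 10.34 and 10.07 in saline rats), by 0.62 on the log2 scale (adjusted p = 0.0296).

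Over all 5 chaperone lists 20 genes rose, and 48 were not called higher, 3 of which were lower (Hspa14, Stub1 and Hsf1). EIH replicate 1 had the lowest level of the 4 EIH rats in 4 of these lists. Relative to the saline mean, the mean over the Hsp70 and Hsp110 list was 1.19 to 2.23 in the EIH rats, against -0.25 to 0.42 in the saline rats. Cirbp, the cold-inducible RNA-binding protein, was named after its values were seen and went the other way, with 5.82, 4.73, 4.20 and 4.99 in EIH rats, against 8.34, 7.62, 7.60 and 7.29 in saline rats. The groups did not overlap, and Cirbp differed by -2.78 ± 0.59 (adjusted p = 0.00372). Rbm3, another cold-inducible RNA-binding protein named in the same way, differed by -0.41 ± 0.34 and was not called (adjusted p = 0.51).

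**Figure D2:**
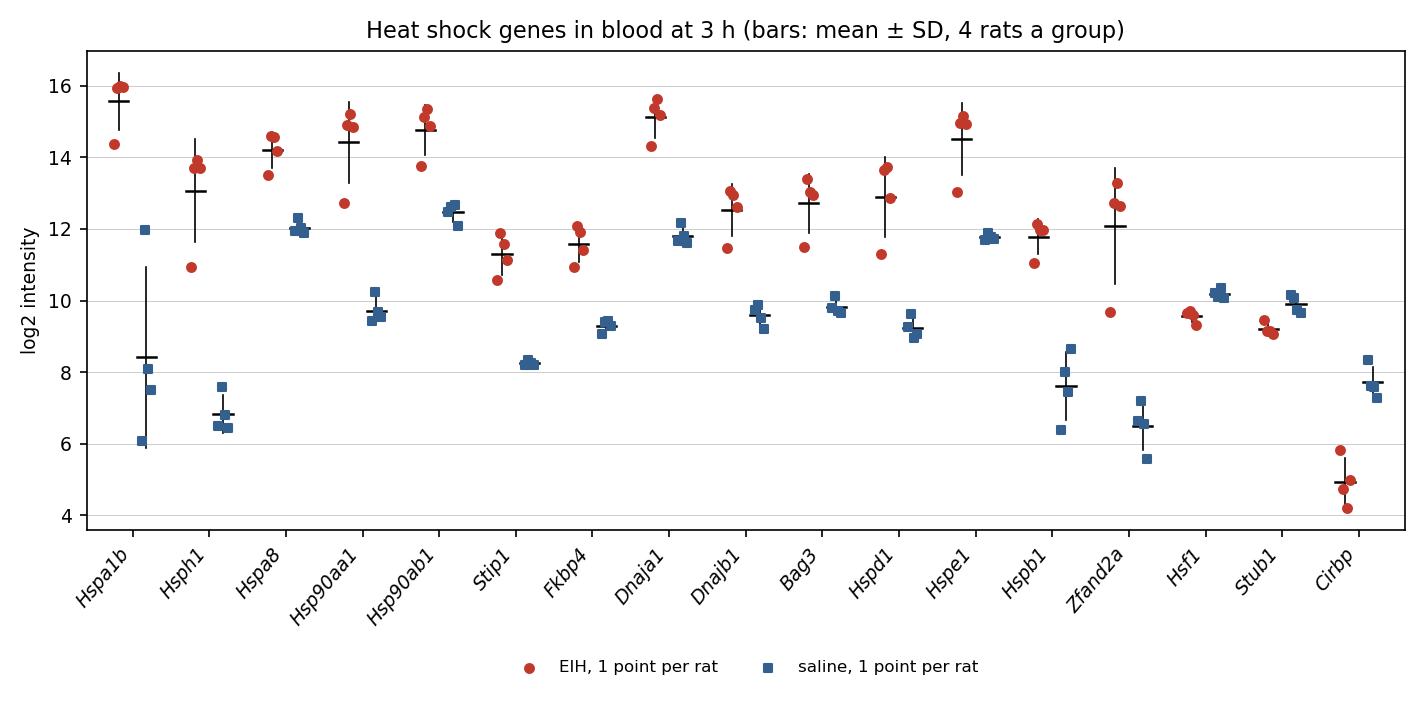
Log2 intensity of heat shock genes in single rats, EIH (circles) left of saline (squares), with bars at the mean ± SD of 4 rats a group. Hspa1b to Zfand2a are higher in every EIH rat, while Hsf1, Stub1 and Cirbp are lower in every EIH rat.

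Of 24 tested genes of the endoplasmic reticulum (ER) stress response 5 rose and none fell, with a median of 0.33. Atf3, a stress-induced transcription factor of the ATF family, had 9.82, 11.56, 12.11 and 11.70 in EIH rats, against 7.81, 7.25, 7.33 and 7.42 in saline rats and rose by 3.85 ± 0.57 (14.4-fold (95% interval 6.32 to 32.7), adjusted p = 0.000218). Trib3, a pseudokinase induced by ATF4 and CHOP, rose by 2.02 ± 0.43, with replicate 1 lowest among the EIH rats (8.89, 10.07, 10.83 and 11.61 in EIH rats, against 8.31, 8.81, 8.03 and 8.17 in saline rats). Ddit3, which encodes CHOP, rose by 1.34 ± 0.19. Hspa5, the ER Hsp70 known as BiP, rose by 0.92 ± 0.26 and the ER stress sensor Atf6 by 0.86 ± 0.24. No value of these 5 genes overlapped between the groups, as was so for 515 of all 557 higher genes. The count of rises was 3 without EIH replicates 3 or 4, in a fit of the compared groups alone, and with an equal-variance test.

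Heme oxygenase 1, the heme-degrading enzyme encoded by Hmox1, was at 10.56, 12.24, 11.80 and 11.48 in EIH rats, against 8.28, 8.77, 8.89 and 8.88 in saline rats. Every EIH rat was above every saline rat, and Hmox1 rose by 2.82 ± 0.43 (7.06-fold (95% interval 3.81 to 13.1), adjusted p = 0.000255). Its constitutive relative Hmox2 fell by 0.67 on the log2 scale (adjusted p = 0.0101). Nfe2l2, which encodes the antioxidant regulator Nrf2, rose by 1.59 ± 0.22 (adjusted p = 0.000153). Txnrd1 (thioredoxin reductase) and the metallothionein Mt1 rose by 2.04 ± 0.36 and 2.51 ± 0.54, and Sod1, the cytosolic superoxide dismutase, by 1.14 ± 0.23. Altogether 5 of 24 tested oxidative stress genes rose and 1 fell, with a median of 0.24.

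Immediate early genes are transcribed within minutes of a stimulus without new protein synthesis. Of 26 tested members 16 rose and 2 fell, and the median was 1.39. Jun, an AP-1 subunit, measured 11.06, 12.85, 12.78 and 12.48 in EIH rats, against 7.71, 8.89, 7.93 and 7.60 in saline rats. The EIH rats were all well above the saline rats, and the difference was 4.26 ± 0.55 (19.2-fold (95% interval 8.66 to 42.5), adjusted p = 0.000108). Junb, also of AP-1, had 11.20, 11.86, 12.43 and 12.08 in EIH rats, against 8.97, 9.46, 9.31 and 9.12 in saline rats and rose by 2.68 ± 0.31 (adjusted p = 4.78e-05). The other AP-1 genes that rose were Fos (3.03), Fosl1 (3.59), Fosl2 (1.96) and Maff (1.13). Ier3, an apoptosis regulator induced by NF-kappaB, rose by 3.15 ± 0.45. Zfp36, which destabilises cytokine mRNAs, and Dusp1, a phosphatase of MAP kinases, rose by 3.27 ± 0.58 and 1.87 ± 0.42. Egr1 (2.56), Cebpb (2.31), Cebpd (1.17), Klf6 (1.60), Ier2 (1.02) and Klf10 (0.93) completed the rises with Atf3. The 2 that fell were Klf2 (-1.02 ± 0.24), a factor of resting lymphocytes and endothelium, and Klf4 (-0.74 ± 0.20). For all 18 of these genes the groups did not overlap, as was so for 515 of all 557 higher and 657 of all 693 lower genes.

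Neutrophil genes were higher in EIH blood, with 15 of 33 tested members up, 1 down and a median of 1.40. Relative to the saline mean, the list's level was 1.27 to 1.58 in the EIH rats, against -0.28 to 0.30 in the saline rats. Cxcr2, the receptor that draws neutrophils to CXC chemokines, was at 9.48, 9.50, 9.67 and 9.89 in EIH rats, against 8.05, 8.52, 8.65 and 7.92 in saline rats, with no overlap, and rose by 1.35 ± 0.31 (adjusted p = 0.00587). Csf3r, the G-CSF receptor, rose by 1.86 ± 0.33 (adjusted p = 0.000822). Mmp8, neutrophil collagenase, had 11.35, 12.69, 12.72 and 12.38 in EIH rats, against 8.90, 10.09, 9.84 and 9.48 in saline rats and rose by 2.71 ± 0.51 (6.52-fold (95% interval 3.1 to 13.7)). Padi4, the enzyme that citrullinates histones in neutrophil extracellular traps, was within 10.56 to 10.76 in saline rats and rose by 1.86 ± 0.37. Defa5, an alpha-defensin, read 12.26, 12.57, 11.68 and 11.61 in EIH rats, against 4.72, 8.20, 8.91 and 5.74 in saline rats. The saline values of Defa5 were far apart and the EIH values close together, and the difference was 5.14 ± 0.92 (35.2-fold (95% interval 9.35 to 133), adjusted p = 0.000956).

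The remaining neutrophil genes that rose were Mmp9 (3.28), the integrin subunit Itgam (2.48), Retnlg (2.42), the cathelicidin Camp (2.32), Fpr1 (2.26), Ctsg (1.94), Slpi (1.92), Chi3l1 (1.51), Np4 (1.43) and Anxa1 (0.91). Fpr1, the formyl peptide receptor, was 5.82 in EIH replicate 1, inside the saline range, and 8.53 to 9.33 in the other EIH rats. The alarmin S100a8 was higher in every EIH rat (14.43, 14.92, 14.83 and 14.69 in EIH rats, against 13.61, 14.00, 14.09 and 13.46 in saline rats) but missed the threshold (0.93 ± 0.41, adjusted p = 0.158). Fcgr3a, an IgG receptor that NK cells also express and that stands in the NK list too, was the neutrophil list member that fell (-1.55 ± 0.50, adjusted p = 0.047). Neutrophil list rises numbered 9 without EIH replicate 3, or without saline replicate 4.

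In the monocyte and macrophage list 8 of 24 genes rose and none fell (median 0.62). Cd14, the lipopolysaccharide coreceptor of monocytes, stood at 11.53, 12.09, 13.51 and 13.35 in EIH rats, against 9.22, 10.28, 10.11 and 9.50 in saline rats. The groups did not overlap, EIH replicates 3 and 4 were highest, and Cd14 rose by 2.85 ± 0.59 (7.19-fold (95% interval 3.06 to 16.9), adjusted p = 0.00289). Vcan, a proteoglycan of classical monocytes, had 8.84, 10.12, 11.85 and 11.79 in EIH rats, against 7.44, 8.22, 7.21 and 6.30 in saline rats and rose by 3.36 ± 0.72. Spi1, the myeloid master factor PU.1, rose by 1.77 ± 0.31 and Fcgr1a, the high affinity IgG receptor, by 1.13 ± 0.22. Gpnmb (1.68), the complement subunits C1qa (1.56) and C1qb (1.13) and lysozyme Lyz2 (0.72) also rose. Lyz2 lay close to the upper end of the scale, which EIH replicate 3 reached. Rises in the monocyte list numbered 5 without saline replicate 1.

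Of 18 tested antimicrobial and LPS-binding genes 8 rose, 1 fell and the median was 1.35. Besides the neutrophil and monocyte genes already given (Camp, Np4, Defa5, Slpi, Chi3l1 and Lyz2), these were Lbp (3.30 ± 0.64), the lipopolysaccharide carrier, and the serum amyloid gene Saa4 (2.41 ± 0.69). Lbp measured 9.61, 10.47, 10.85 and 10.41 in EIH rats, against 7.04, 7.09 and 6.98 in the 3 saline rats with a value. Camp measured 12.11, 12.92, 12.49 and 12.46 in EIH rats, against 9.91, 10.43, 10.25 and 10.10 in saline rats and rose by 2.32 ± 0.51 (adjusted p = 0.00433). For both, each EIH rat was above each saline rat with a value. Rnase6, an antimicrobial ribonuclease of monocytes, fell (-2.14 ± 0.47, adjusted p = 0.00405). Antimicrobial rises numbered 4 without saline replicates 1 or 4, and 5 without EIH replicates 3 or 4.

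Complement and coagulation genes showed 11 rises and no fall among 31 tested, with a median of 0.82. F3, tissue factor, which starts the extrinsic coagulation cascade, had 7.58, 11.04, 11.44 and 10.80 in EIH rats, against 5.78, 5.70, 5.98 and 6.80 in saline rats. EIH replicate 1 was the nearest to the saline range and the other EIH rats were far above it, and F3 rose by 4.15 ± 0.81 (17.7-fold (95% interval 5.37 to 58.7), adjusted p = 0.0033). Plaur, the urokinase receptor, rose by 3.13 ± 0.49 and Thbd, thrombomodulin, by 1.98 ± 0.58 with overlapping values. C3, the central complement component, read 12.77, 13.50, 13.52 and 13.30 in EIH rats, against 11.45, 12.10, 12.20 and 11.58 in saline rats and rose by 1.44 ± 0.26 (adjusted p = 0.000984) without overlap. Cfd (factor D), Cfp (properdin), the anaphylatoxin receptor C5ar1, the decay accelerator Cd55 and C1s rose by 0.95 to 2.42, as did C1qa and C1qb. C1s had a value in 2 of the saline rats. There were 7 without saline replicate 1.

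Among 40 tested cytokine and chemokine ligands 6 rose and 2 fell, and the median was 0.51. Cxcl2, a neutrophil-attracting chemokine, measured 9.40, 10.09, 10.81 and 10.86 in EIH rats, against 3.17, 6.17 and 3.64 in the 3 saline rats with a value. The saline values were low and scattered, and the difference was 5.96 ± 1.20 (62.4-fold (95% interval 10.7 to 363), adjusted p = 0.00352). Ccl2, which attracts monocytes, had 10.68, 10.92, 11.58 and 10.71 in EIH rats, against 6.39, 8.19, 7.68 and 7.17 in saline rats and rose by 3.61 ± 0.70 (adjusted p = 0.00158). Il1b was bright in all rats (14.65, 14.96, 15.23 and 15.04 in EIH rats, against 13.32, 13.29, 13.61 and 13.05 in saline rats) and rose by 1.65 ± 0.26 (adjusted p = 0.000345). Il1rn, the secreted antagonist of IL-1, rose by 2.04 ± 0.25 (adjusted p = 8.83e-05), and Csf1 and Osm by 2.79 ± 0.45 and 2.03 ± 0.46. Ccl20, the ligand of Ccr6, fell (3.21, 3.97 and 3.24 in the 3 EIH rats with a value, against 5.33, 7.20 and 6.80 in the 3 saline rats with a value), by 2.97 on the log2 scale. Cxcl10, induced by interferon, fell by 1.59 on the log2 scale with EIH replicate 1 inside the saline range.

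Of 34 tested receptors for interleukins, chemokines and cytokines 10 rose and 4 fell, with a median of 0.47. Those that rose included both TNF receptors, Tnfrsf1a (11.97, 12.17, 12.59 and 12.51 in EIH rats, against 10.50, 10.81, 10.94 and 10.40 in saline rats) by 1.64 ± 0.22 and Tnfrsf1b by 1.09 ± 0.22, and the interleukin receptor chains Il13ra1 (1.71 ± 0.27), Il1rap (2.18 ± 0.49) and Il10ra (1.17 ± 0.32). The chemokine receptors Ccr1 (2.67) and Cxcr4 (0.97) and the shared receptor chain Csf2rb (1.66) rose with Cxcr2 and Csf3r. The 4 that fell were Ccr7 (-2.34), which guides naive T cells to lymph nodes, Cxcr3 (-2.01), Ccr6 (-1.64) and Il21r (-1.24). These falls numbered 2 without EIH replicates 3 or 4, or without saline replicate 1.

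Among 28 tested Toll-like receptor and inflammasome genes 6 rose and 1 fell (median 0.38). Tlr2, which senses bacterial lipopeptides, was at 12.04, 12.90, 13.80 and 13.59 in EIH rats, against 10.98, 11.63, 11.55 and 10.95 in saline rats, without overlap, and rose by 1.81 ± 0.37 (adjusted p = 0.00244). Tlr6, its partner, rose by 1.37 ± 0.19 (adjusted p = 0.000185) and Nfkbiz, a nuclear regulator of NF-kappaB, by 2.45 ± 0.56. The inflammasome sensors Nlrp3 (1.24) and Nlrc4 (1.45) rose, as did Cd14, while caspase 1 (Casp1) fell by 0.50 on the log2 scale (adjusted p = 0.0361).

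T cell genes were lower in EIH blood. Of 25 tested members 16 fell and none rose, with a median of -1.97, against 0.08 over all genes. The T cell receptor chain Cd3e read 8.78, 8.35, 7.86 and 6.38 in EIH rats, against 9.88, 9.97, 10.03 and 9.66 in saline rats. Cd3g read 12.08, 11.43, 10.40 and 10.10 in EIH rats, against 13.46, 13.32, 13.37 and 13.15 in saline rats. In both genes the saline rats lay close together and every EIH rat below them, with replicates 3 and 4 lowest, and the differences were -2.04 ± 0.40 (adjusted p = 0.00174) and -2.32 ± 0.41 (adjusted p = 0.000866). Cd8a, the coreceptor of cytotoxic T cells, had 8.89, 8.76, 7.81 and 7.91 in EIH rats, against 10.69, 10.78, 10.68 and 10.15 in saline rats and fell (-2.23 ± 0.29, lower by 4.69-fold (95% interval 3.07 to 7.16), adjusted p = 0.000124). Cd5, a brake on receptor signalling, was at 8.16, 5.59, 6.42 and 5.23 in EIH rats, against 9.94, 9.69, 9.29 and 8.58 in saline rats and differed by -3.02 ± 0.65. Cd6, its relative, differed by -2.47 ± 0.39 on the probe used and by -0.78 on another probe. The adaptor Skap1 fell too (-1.74 ± 0.31).

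Signalling molecules next to the T cell receptor were among the falls, with Zap70 at -1.97 ± 0.40, Lat at -2.33 ± 0.73, Cd247 at -2.07 ± 0.64 and Ubash3a at -2.83 ± 0.76. So were the transcription factors Lef1 (-2.10) and Bcl11b (-2.12), the adhesion receptor Cd2 (-2.35), Cd8b (-1.22), Cd3d (-1.04) and Ccr7 (-2.34). Another probe for Bcl11b differed by 0.49. For Cd247 the EIH and saline values overlapped. As a list, T cell genes stood at -2.33 to -0.99 in the EIH rats, against -0.23 to 0.20 in the saline rats, relative to the saline mean. Ets1, a lymphocyte transcription factor outside the list, fell by 2.73 on the log2 scale, with 12.22, 8.28, 11.62 and 11.50 in EIH rats, against 13.85, 13.57, 13.68 and 13.43 in saline rats. The number of T cell genes called lower was 9 without EIH replicate 4, and 10 without EIH replicate 3, or without saline replicates 1 or 3. With all arrays kept it was 7 with an equal-variance test and 10 in a fit of the compared groups alone.

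B cell genes showed 4 falls and no rise among 16 tested, and a median of -0.45. Cd79b, a signalling chain of the B cell receptor, had 9.66, 9.98, 9.52 and 9.66 in EIH rats, against 11.63, 11.02, 11.32 and 11.55 in saline rats. No EIH rat reached the saline range, and Cd79b differed by -1.67 ± 0.36 (adjusted p = 0.00373). Fcer2, the low affinity IgE receptor CD23, differed by -2.39 ± 0.57 and Fcmr, the IgM receptor, by -1.43 ± 0.38. The level of the whole B cell list was -1.20 to -0.14 in the EIH rats, against -0.10 to 0.24 in the saline rats, relative to the saline mean. B cell falls numbered 2 without EIH replicate 4, or without saline replicate 1.

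In the NK and cytotoxic lymphocyte list 7 of 31 genes fell and none rose, with a median of -0.83. Klrd1, the CD94 receptor of NK cells, read 9.81, 8.81, 7.51 and 7.01 in EIH rats, against 10.34, 10.74, 10.85 and 10.45 in saline rats. EIH replicate 1 was the nearest to the saline range and replicates 3 and 4 the farthest below it, and the difference was -2.31 ± 0.50 (adjusted p = 0.00399). Gzmk (-2.03) and Gzmm (-1.78), both granzymes, Ly49i2 (-1.85) and cathepsin W (Ctsw, -1.52) fell as well. Gzmk in EIH replicate 1 (10.69) was within the saline range. Prf1, perforin, differed by -0.92 ± 0.49 and was not called (adjusted p = 0.244). By list the level was -1.37 to -0.10 in the EIH rats, against -0.28 to 0.32 in the saline rats, and EIH replicate 2 lay within the saline range. NK list falls numbered 2 without EIH replicates 3 or 4, or without saline replicates 3 or 4, and 3 without saline replicates 1 or 2.

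Of 13 tested genes of major histocompatibility complex (MHC) class II presentation 6 fell, 7 were not called and none rose, and the median was -0.89. RT1-Da, a class II alpha chain of the rat, was at 11.47, 11.59, 11.02 and 10.99 in EIH rats, against 13.56, 13.09, 13.02 and 13.11 in saline rats. All EIH rats were well below all saline rats, and the difference was -1.93 ± 0.35 (adjusted p = 0.00101). RT1-Bb, RT1-Ba, RT1-DOa and RT1-DOb differed by -1.68 to -1.24, and Ciita, the class II transactivator, by -1.39 ± 0.35. Of 18 class I genes 5 fell and 1 rose. RT1-M3-1 and RT1-N3 differed by -1.83 ± 0.27 and -1.42 ± 0.34, the immunoproteasome subunits Psmb8 and Psmb10 by -0.93 and -0.97, and the trimming peptidase Erap1 by -0.88. RT1-A3 was higher (8.49, 8.90, 9.20 and 8.66 in EIH rats, against 6.79, 6.70, 7.55 and 6.17 in saline rats), by 2.02 ± 0.45 (adjusted p = 0.00487). Rat class I genes are close copies of each other, so a probe may read several of them. Class I falls numbered 3 without EIH replicate 4, or without saline replicates 1, 2 or 3. In the dendritic cell list Ccr7 and Itgae (-1.39 ± 0.25) fell, which is 22.2% of 9 members, against 7.0% over all genes. None of the 9 rose, which says little, since 5.63% of all genes did.

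**Figure D3:**
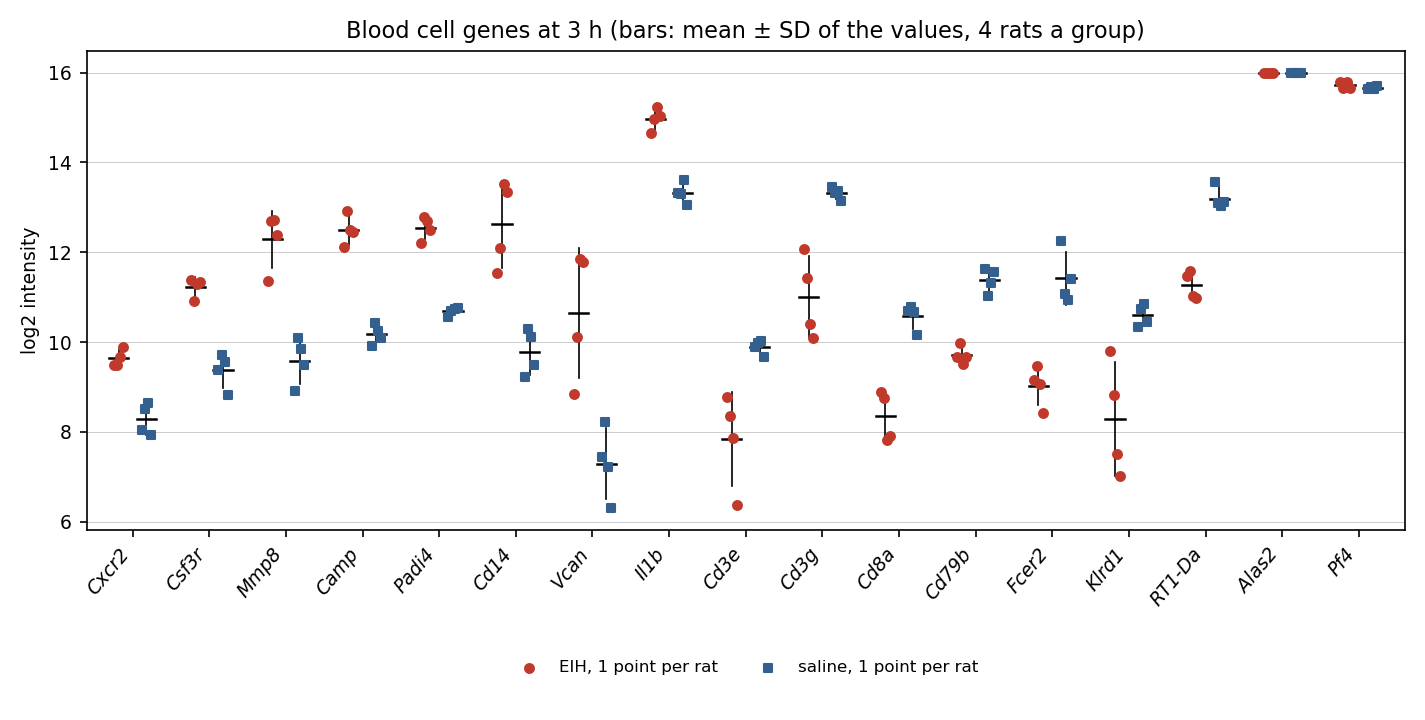
Log2 intensity of blood cell genes in single rats, EIH (circles) left of saline (squares), with bars at the mean ± SD. From Cxcr2 to Il1b the EIH rats are higher, and from Cd3e to RT1-Da they are lower. Pf4 overlaps between the groups close to the maximum of the scale. Alas2 is at the upper end of the scale on all 8 arrays, where no difference could show.

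Of 33 tested erythroid genes 2 rose (6.06%, against 5.63% over all genes) and none fell (against 7.0% over all genes). Those that rose were Trim58 (0.87 ± 0.22), a ubiquitin ligase of erythroblasts, and the transferrin receptor Tfrc (1.02 ± 0.33), and the list's median was 0.17. This list holds Alas2, which stood at the upper end of the scale, where no rise could show. None of 27 platelet and megakaryocyte genes was called by limma, against 12.6% over all genes. At an unadjusted p under 0.05 there were 3 of them, and the list's median was -0.05. Pf4, platelet factor 4, read 15.80, 15.66, 15.78 and 15.66 in EIH rats, against 15.64, 15.67, 15.64 and 15.69 in saline rats. These values lie close to the maximum of the scale (16), so little rise could show. The platelet list was -0.11 to 0.15 in the EIH rats, against -0.14 to 0.06 in the saline rats, relative to the saline mean. In the mast cell, basophil and eosinophil list Prg2, eosinophil major basic protein, was the single gene of 15 called (2.33 ± 0.46, adjusted p = 0.0018). That is 6.67% of the list, near the 5.63% higher over all genes.

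Interferon-induced genes went both ways, with 5 of 40 higher, 4 lower and a median of 0.17. Mx1, an antiviral GTPase, had 7.36, 6.52, 6.66 and 6.04 in EIH rats, against 9.24, 9.10, 8.93 and 8.73 in saline rats and fell (-2.36 ± 0.51, adjusted p = 0.00375), with no overlap between groups. Rsad2, viperin, was lower by 1.82 on the log2 scale on the probe used, while another probe differed by 0.35. Ifi44 fell by 1.80 on the log2 scale, in addition to Cxcl10. Bst2, tetherin, whose promoter window holds the heat shock motif, was at 11.32, 12.26, 11.96 and 11.67 in EIH rats, against 9.64, 9.25, 9.91 and 9.82 in saline rats and rose by 2.15 ± 0.48 (adjusted p = 0.00488). Oasl, Igtp, Irf1 and Ifi35 rose by 0.83 to 1.41. The level of the interferon list overlapped between the groups, with -0.34 to 0.24 in the EIH rats, against -0.13 to 0.11 in the saline rats. The interferon rises numbered 2 without EIH replicates 1, 2 or 3, or without saline replicate 1, and 3 without saline replicates 2 or 3.

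Known glucocorticoid target genes were tested because stress raises corticosterone. Of 24 tested members 6 rose and none fell, with a median of 0.74. These were Dusp1, Cebpd, Anxa1 and Cxcr4, given above, with Gadd45a (1.57 ± 0.35) and Errfi1 (0.99 ± 0.29). Other list members were not called, among them Fkbp5, which differed by -0.19 ± 0.34 (adjusted p = 0.782), Tsc22d3 by -0.72 ± 0.31 (adjusted p = 0.142) and Per1 by 0.96 ± 0.39 (adjusted p = 0.123). On 2 other probes Fkbp5 differed by -0.004 and 0.593. The values on the probe used were 10.18, 9.34, 9.90 and 9.89 in EIH rats, against 9.45, 10.31, 10.43 and 9.88 in saline rats, with wide overlap. In the circadian clock list Nfil3, a repressor of clock outputs, rose (10.03, 10.51, 10.88 and 10.77 in EIH rats, against 7.98, 8.26, 8.17 and 8.18 in saline rats) by 2.40 ± 0.36 (adjusted p = 0.000218) and Bmal1 fell by 0.63 on the log2 scale, among 17 tested. In the clock list the rise and the fall were each 5.88% of members, near the 5.63% higher and 7.0% lower over all genes. The glucocorticoid list had rises numbering 3 without EIH replicate 2, or without saline replicate 1.

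Of 36 glucose uptake, glycolysis and hypoxia genes 7 rose, 1 fell and 28 were not called, with a median of 0.28. The glucose transporters Slc2a3 and Slc2a1 rose by 2.22 ± 0.58 and 1.55 ± 0.44, hexokinase 3 (Hk3) by 1.98 ± 0.51, and the hypoxia-inducible genes P4ha1, Ndrg1, Vegfa and Egln3 by 1.02 to 2.21. P4ha1, a collagen prolyl hydroxylase, had 8.65, 9.30, 9.84 and 9.19 in EIH rats, against 7.10, 6.92, 6.98 and 7.13 in saline rats, with no overlap (adjusted p = 0.00415). Pfkm, the muscle-type phosphofructokinase, fell by 1.67 on the log2 scale. Of 31 fatty acid oxidation genes 7 fell, 1 rose and 23 were not called (median -0.33). Acot2, a mitochondrial acyl-CoA thioesterase, was at 6.02, 6.11, 4.60 and 3.85 in EIH rats, against 8.24, 8.24, 8.17 and 7.86 in saline rats and fell (-2.98 ± 0.39, lower by 7.89-fold (95% interval 4.5 to 13.8), adjusted p = 0.000115). Pdk2, Acads, Eci2, Eci1, Acadm and Acaa1a differed by -1.68 to -0.75, and the carnitine carrier Slc25a20 rose by 0.93 ± 0.24. Pdk4, the fasting-induced kinase, had 4.45, 3.23 and 5.06 in the 3 EIH rats with a value, against 5.33, 4.30 and 4.02 in the 3 saline rats with a value and was not called (adjusted p = 0.848).

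Of 23 cholesterol and lipid synthesis genes 5 fell and none rose (median -0.43): Dhcr7 (-1.35), the last enzyme of cholesterol synthesis, Mvk (-0.97), the fatty acid synthase Fasn (-0.80) and the desaturases Scd (-1.18) and Scd2 (-1.37). Other probes for Scd2 differed by 0.62 and 0.02, so its fall holds for 1 of its probes. Lipid synthesis falls numbered 2 without saline replicate 1, and 3 without EIH replicates 2 or 4, or without saline replicates 2 or 4. Cytosolic ribosomal protein genes were bright and slightly lower, with 14 of 65 called, none higher and a median of -0.35. All EIH rats lay below all saline rats in 44 of the 65, against 13% over all genes. Rpl3, for which the values were 11.69, 12.07, 11.72 and 11.45 in EIH rats, against 12.86, 12.81, 12.84 and 12.71 in saline rats, differed by -1.08 ± 0.20 (adjusted p = 0.00124). Rpl5 differed by -0.80 ± 0.18, Rps13 by -0.63 ± 0.17 and Rpl27 by -0.60 ± 0.17. The list's level was -0.55 to -0.17 in the EIH rats, against -0.10 to 0.10 in the saline rats, relative to the saline mean. Ribosomal falls numbered 2 without EIH replicate 4, and 3 without saline replicates 1 or 3, and 5 without EIH replicate 1, and 6 without saline replicate 2, and 9 without EIH replicate 3. With all arrays kept they numbered 4 in a fit of the compared groups alone, 8 with a minimum of 1.5-fold, 24 with array weights or an intensity trend and robust spread, and 30 with an equal-variance test.

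Of 39 proteasome and ubiquitin genes 6 fell and none rose, with a median of -0.06. Psmd5, an assembly chaperone of the proteasome, differed by -1.19 ± 0.29, the activator subunits Psme1 and Psme2 by -0.82 and -0.77, and Psma7, Psmb3 and Psma4 by -0.67 to -0.51. Proteasome falls numbered 3 without EIH replicate 4, or without saline replicates 1 or 2. Of 60 respiratory chain genes 5 fell (8.33%, against 7.0% over all genes) and 1 rose (median -0.15). Ndufs3, Uqcrc2, Atp5f1a, Atp5f1c and Atp5mc1 fell (-0.72 to -0.61) and cytochrome c (Cycs) rose by 0.67 ± 0.21 with overlapping values. The respiratory chain falls numbered 9 to 12 under 6 other settings, such as array weights (11) and an equal-variance test (12).

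In the list of p53 targets and apoptosis genes 7 of 33 rose and 3 fell, with a median of 0.34. Cdkn1a, the cell cycle inhibitor p21, rose by 3.08 ± 0.61, Gadd45b by 1.49 ± 0.28 and Tp53inp1 by 1.45 ± 0.28, besides Gadd45a. The survival genes Mcl1 (1.34 ± 0.26), Bcl2l1 (0.89 ± 0.22) and Birc3 (0.76 ± 0.21) rose, while Bcl2, which resting lymphocytes express, fell (-0.98 ± 0.29). Sesn1, a stress-responsive gene of the sestrin family, read 8.22, 7.30, 7.86 and 7.69 in EIH rats, against 10.11, 10.09, 9.96 and 9.75 in saline rats. All EIH rats were below all saline rats, and Sesn1 differed by -2.21 ± 0.27 (adjusted p = 8.83e-05). Btg1, an antiproliferative gene, fell by 0.72 on the log2 scale. Falls in this list numbered 1 without EIH replicates 1, 2 or 4, or without saline replicates 1 or 4. Of 40 cell cycle genes Kif20a was the only one called (1.30), which is 2.5% higher, against 5.63% over all genes.

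Of the 12 largest rises in the ranking (groups not overlapping, predicted loci left out), 5 belong to none of the lists. Nos2, inducible nitric oxide synthase, measured 7.68, 10.34, 10.88 and 10.66 in EIH rats, against 5.24, 6.11, 5.63 and 4.69 in saline rats. EIH replicate 1 was between the saline rats and the other EIH rats, and Nos2 rose by 4.47 ± 0.71 (22.2-fold (95% interval 7.96 to 61.8), adjusted p = 0.000347). Hcar2, the niacin receptor of neutrophils and other cells, had 8.44, 10.20, 10.74 and 10.28 in EIH rats, against 6.65, 5.60, 5.98 and 3.80 in saline rats and rose by 4.41 ± 0.62 (adjusted p = 0.000216). Cdc42ep2, an effector of the GTPase Cdc42, rose by 5.01 ± 0.74, Crispld2, a secreted LPS-binding protein, by 4.41 ± 0.99 and Serpinb11 by 4.23 ± 1.08. Crispld2 was high in all EIH rats and very uneven among saline rats (11.52, 12.55, 12.77 and 12.63 in EIH rats, against 5.33, 9.60, 9.17 and 7.72 in saline rats).

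Ephb6, a kinase-dead ephrin receptor known from T cells, showed the largest fall in the same ranking. It read 4.45, 3.23 and 2.88 in the 3 EIH rats with a value, against 7.27, 7.54, 7.33 and 6.80 in saline rats. Its difference was -3.72 ± 0.50 (lower by 13.1-fold (95% interval 6.3 to 27.4), adjusted p = 0.000185), and another probe differed by -1.32. Dnmt3b, a de novo DNA methyltransferase, was at 4.84, 5.59, 3.21 and 3.24 in EIH rats, against 7.50, 7.62, 7.38 and 6.80 in saline rats and differed by -3.11 ± 0.43 (adjusted p = 0.000186). Cbx7, a Polycomb subunit, read 9.15, 8.04, 5.60 and 8.14 in EIH rats, against 11.05, 10.80, 10.65 and 10.72 in saline rats, with EIH replicate 3 far below the others, and differed by -3.07 ± 0.48. Nipsnap1, Alkbh2 (a DNA repair demethylase), Klhl8, Jup (plakoglobin), Cyp4f5 and Akap1 differed by -3.18 to -2.88, with Cd5, Acot2 and Ccl20 making up the 12 largest falls whose groups did not overlap. The ranking took only genes without overlap, so by that choice all EIH values of each were below all saline values. Another probe for Akap1 differed by 0.42, with a value in 1 saline rat.

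**Figure D4:**
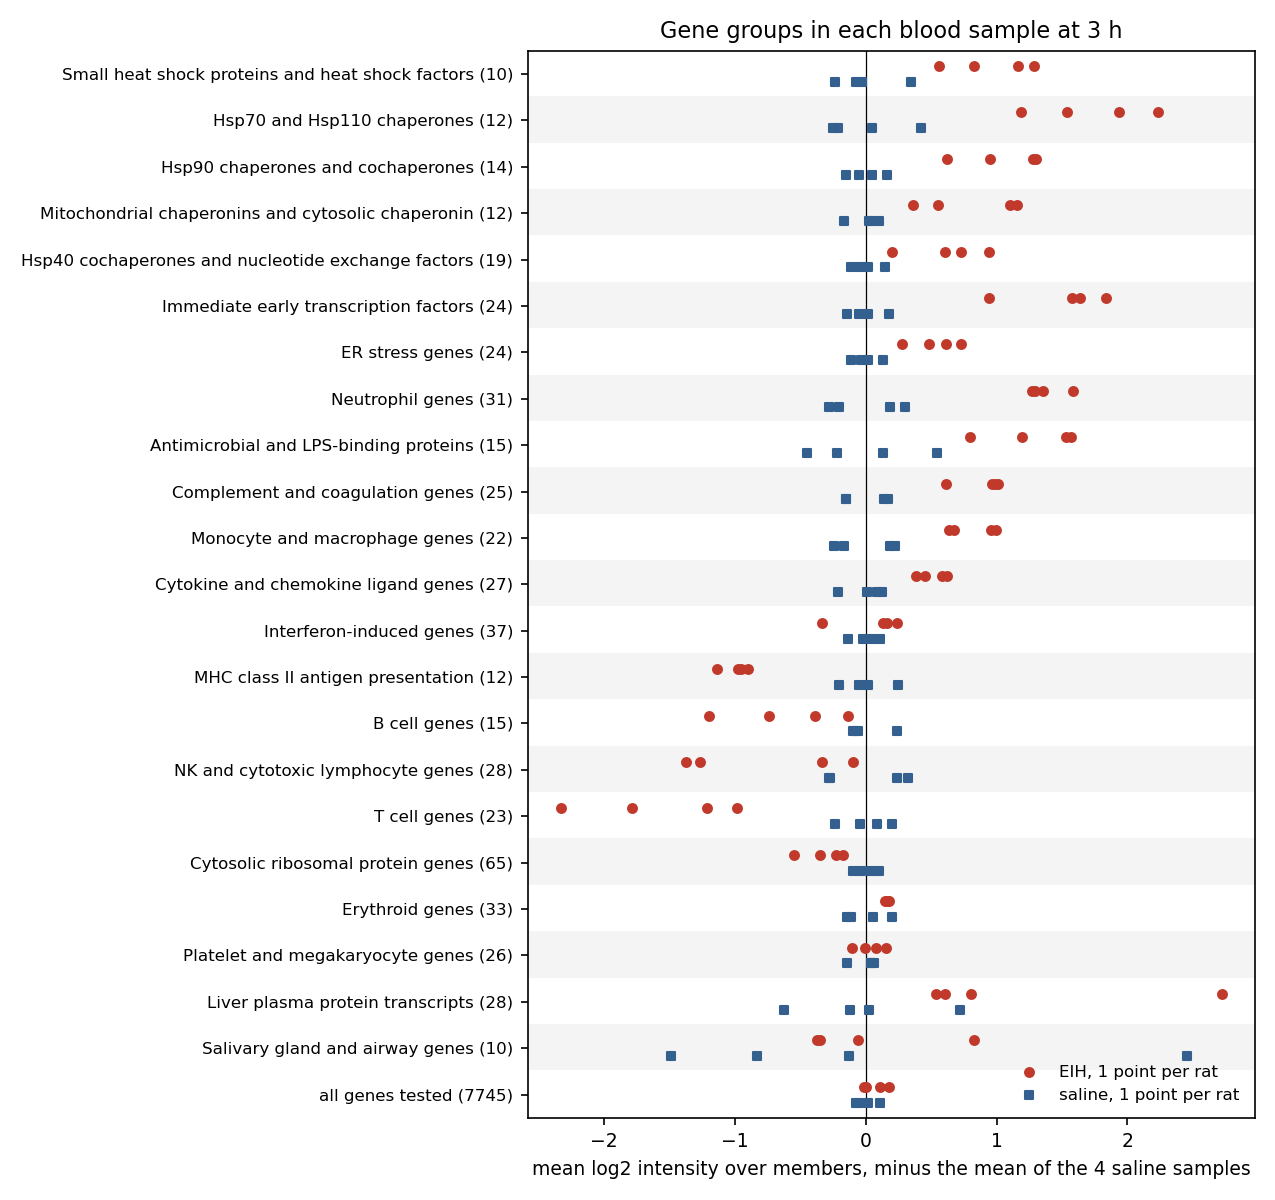
Each point is 1 rat's mean log2 intensity over the members of a gene list that have a value on all 8 arrays (their number in brackets), minus the mean of the 4 saline rats; EIH (circles) is above saline (squares) in each row. Chaperone, immediate early and neutrophil lists are higher in all EIH rats, T cell and MHC class II lists are lower in all EIH rats, and erythroid and platelet lists overlap between the groups.

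Markers of other tissues were checked in the same way. The plot of list levels by rat shows 2 rats standing apart. In EIH replicate 1 the transcripts of liver plasma proteins were 2.72 above the saline mean, against 0.53 to 0.80 in the other EIH rats and -0.62 to 0.72 in saline rats. Albumin (Alb) read 13.41, 8.98, 9.15 and 10.13 in EIH rats, against 10.24, 6.89 and 3.80 in the 3 saline rats with a value. In saline replicate 2 salivary gland and airway genes were 2.45 above the saline mean, against -1.49 to -0.13 in the other saline rats. Of 37 liver genes 2 rose (5.41%, against 5.63% over all genes), Tf (1.61 ± 0.33) and Ass1 (2.21 ± 0.65). The liver list's median was 1.26. Of 16 salivary genes Scgb1a1 rose (1.71 ± 0.37, 6.25% of the list), and of 18 endothelial genes Sox18 (5.56%), both near that share. Of 21 skin genes Lypd3 and Csta rose (9.52%), and of 18 fibroblast genes Fbln1 and Cfd (11.1%). Of 22 muscle genes Tnnt3 and Mb rose (9.09%) and Eno3 fell (4.55%, against 7.0% over all genes). So few calls say little about these lists. No neuron or glia gene of 27 was called by limma, against 12.6% over all genes, and 3 passed an unadjusted p under 0.05. The part of these cells in the results above was not tested, but counts without these rats are given here. Without EIH replicate 1 the chaperone lists had 22 rises, the neutrophil list 11 rises and the T cell list 15 falls. Without saline replicate 2 they had 20, 12 and 12.

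Set against blood 3 h after amphetamine, a stimulant that releases catecholamines, EIH blood differed in 4 of 10068 genes (0.0397%), 1 higher (0.00993%) and 3 lower (0.0298%), with 960 at an unadjusted p under 0.05. Leaving out single arrays gave 1 gene without AMPH replicate 3, 2 without EIH replicate 3, 7 without EIH replicate 2 or AMPH replicate 4, and 10 without AMPH replicate 2. Zfp251, a zinc finger gene, was higher in EIH blood by 3.15 ± 0.47 (adjusted p = 0.0199). Dtwd1 (-2.18 ± 0.37), the endopeptidase Ecel1 (-1.58 ± 0.26) and the ETS factor Elf4 (-2.53 ± 0.36) were lower in EIH than in AMPH blood. Each of these 4 calls ended under at least 3 alternatives, and in a fit of the 3 h arrays none was called. No member of the chaperone, neutrophil or T cell lists was among the 4, which at 0.0397% of all genes says little about these lists. The comparisons of EIH and of AMPH with saline share the same 4 saline rats, so their values are given side by side. For AMPH 856 of 9863 genes (8.68%) were called, 501 higher (5.08%) and 355 lower (3.6%). Hspa1b differed from saline by 7.16 ± 0.99 after EIH and by 6.54 ± 0.99 after AMPH, Hsph1 by 6.24 ± 0.61 and 5.42 ± 0.61, Cd8a by -2.23 ± 0.29 and -2.17 ± 0.29, and Mmp8 by 2.71 ± 0.51 and 2.59 ± 0.51. For Hspa1b the difference between the treatments was 0.62 ± 0.99 and for Hsph1 0.82 ± 0.61 (adjusted p = 0.915 and 0.746), and a p above the threshold does not show that the treatments act alike. The Hspa1b values are capped in 3 EIH rats and reached 15.95 after AMPH, so their comparison says little about a difference in size.

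Against the EIH effect at 1 day, measured against saline rats of that time, the effect at 3 h differed in 859 of 9483 genes (9.06%), 373 with a higher value at 3 h (3.93%) and 486 with a lower (5.12%). The total was 457 without saline replicate 1 of the 3 h set and 469 without EIH replicate 4 of the 1-day set. Of the 1245 genes called at 3 h and tested here, 673 differed in the same direction. These genes were chosen by the 3 h effect, which is itself part of this comparison, so the choice favours that direction. In 1-day blood alone 8 of 9762 genes (0.082%) were called, 5 higher (0.0512%) and 3 lower (0.0307%), and 1007 passed an unadjusted p under 0.05. The values of the 3 h arrays and of the 1-day arrays are scaled in separate sets, so time cannot be told apart from that scaling for a level, while each effect is taken within its own set. Hspa1b differed by 7.16 ± 0.99 at 3 h and 0.98 ± 0.99 at 1 day, and the difference of the effects was 6.18 ± 1.41 (adjusted p = 0.0127). Zfand2a (5.62 ± 1.11), Hspb1 (4.51 ± 0.97), Hspd1 (3.07 ± 0.85), Hspe1 (2.64 ± 0.64) and Dnaja1 (2.25 ± 0.39) also had larger effects at 3 h. For Hsph1 the effects were 6.24 ± 0.61 and 3.62 ± 0.61, for Hsp90aa1 4.69 ± 0.59 and 3.31 ± 0.59, and for Dnajb1 2.94 ± 0.44 and 2.68 ± 0.44. The tests of these 3 differences missed the threshold (adjusted p = 0.0613, 0.318 and 0.85), and these 3 genes were still higher in EIH blood at 1 day, as was Dnaja4 (1.19 ± 0.21).

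The count of members whose effect differed between the times varied by list. Over all genes, 3.93% had a higher effect at 3 h and 5.12% a lower one. In the neutrophil list 9 of 32 members had a higher effect at 3 h and none a lower one, in the immediate early list 9 of 25 were higher and 1 lower, in the T cell list 7 of 25 were lower and in the MHC class II list 6 of 13 were lower. In the B cell list 1 of 16 was lower (6.25%), near the share over all genes. In the NK list none of 31 was called by limma, with 7 at an unadjusted p under 0.05. None of the neutrophil, immediate early, T cell and MHC class II lists had a called member in 1-day blood. Only 0.082% of all genes were called there, so this absence says little about the lists. Defa5 differed by 5.14 ± 0.92 at 3 h and -1.18 ± 0.92 at 1 day (difference 6.32 ± 1.30, adjusted p = 0.00815). Cd8a differed by -2.23 ± 0.29 and -0.02 ± 0.29 (difference -2.21 ± 0.41, adjusted p = 0.00544), and RT1-Da by -1.93 ± 0.35 and 0.35 ± 0.35 (difference -2.28 ± 0.49, adjusted p = 0.00993). The largest other differences upward were those of Hcar2 (5.70), Dcdc2 (5.56) and Usp31 (5.35), and downward those of Ets1 (-3.99), Ap3m2 (-3.96), Klhl8 (-3.93), Jup (-3.84), Cyp4f5 (-3.79) and Mterf2 (-3.59). Mterf2, a mitochondrial transcription termination factor, was not called at 3 h by itself (-2.27 ± 0.74, adjusted p = 0.0524). Tsnax, which encodes translin-associated factor X, went in opposite directions, by -1.05 ± 0.26 at 3 h and 1.38 ± 0.26 at 1 day (difference -2.43 ± 0.37, adjusted p = 0.00203).

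The choroid plexus, the epithelium that makes cerebrospinal fluid, was measured in pools that include the same rats. By the labels, an EIH and a saline rat number of these 3 h pools also appear in 1-day blood of the same treatment. The labels do not explain this conflict. There EIH changed 35 of 10261 genes (0.341%), 34 upward (0.331%) and 1 downward (0.00975%). Of those 34 rises 17 were also rises in blood, which is 50% of the choroid plexus list and 3.06% of the 556 blood rises tested in both. The effects in blood and choroid plexus differed in 602 of 9813 genes (6.13%), 224 with the higher value in blood (2.28%) and 378 with the lower (3.85%). Of 1246 genes called in blood and tested here, 511 differed in the direction of the blood effect. They were chosen by the blood effect, which is itself part of this comparison, so the choice favours that direction. Hsph1 differed by 6.24 ± 0.61 in blood and 2.78 ± 0.51 in choroid plexus (difference 3.47 ± 0.82, adjusted p = 0.00801). Hsp90aa1 differed by 4.69 ± 0.59 and 2.02 ± 0.36, Hspa8 by 2.18 ± 0.30 and 0.38 ± 0.21, Dnaja1 by 3.31 ± 0.28 and 1.33 ± 0.29, and Zfand2a by 5.59 ± 0.78 and 0.98 ± 0.32, all with a larger effect in blood (adjusted p = 0.0187, 0.00269, 0.00222 and 0.00137). For Hspa1b (7.16 ± 0.99 and 6.43 ± 1.09), Hspb1 (4.16 ± 0.68 and 4.35 ± 0.72) and Hmox1 (2.82 ± 0.43 and 3.90 ± 0.61) no difference between the tissues was detected, although Hspa1b reached the upper end of the scale in both (at most 15.99 in blood and 15.98 in choroid plexus), which limits that comparison, with differences of 0.73, -0.18 and -1.08 (adjusted p = 0.852, 0.953 and 0.445).

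Outside the chaperones, 7 of 32 neutrophil genes had a higher effect in blood than in choroid plexus (2.28% over all genes). Of 24 T cell genes 4 had a lower one (3.85% over all genes). Neither list had a called member in choroid plexus, where only 0.341% of all genes were called, so this absence says little about the lists. Nos2 differed by 4.47 ± 0.71 in blood and -0.46 ± 0.23 in choroid plexus (adjusted p = 0.000215), and F3 by 4.15 ± 0.81 and 0.13 ± 0.16 (adjusted p = 0.00269). Cdc42ep2 (4.66), Serpinb11 (4.47), Car4 (4.55) and Ifitm6 (4.50) were the other large positive differences between the tissues, and Ccl20 (-4.23), Ephb6 (-3.71), Cbx7 (-3.37), Ets1 (-3.25), Mia (-3.17) and Alkbh2 (-3.09) the negative ones. Il1b rose in blood by 1.65 ± 0.26, and its choroid plexus difference was 1.55 ± 0.44, without a detected difference between the tissues (adjusted p = 0.945). Car4, carbonic anhydrase 4, was not called in blood alone (3.90 ± 1.42, adjusted p = 0.087).

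**Figure D5:**
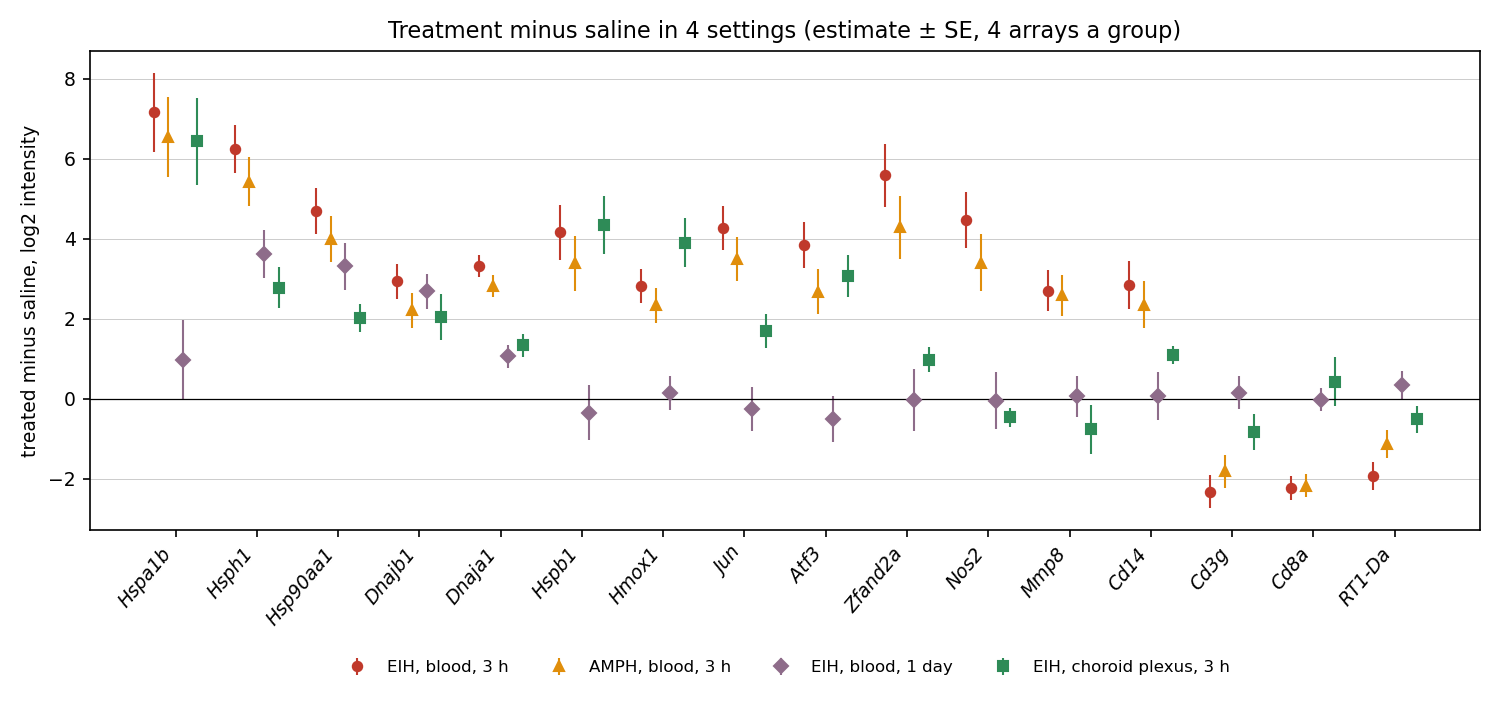
Difference from saline in log2 intensity ± SE for 16 genes in EIH blood at 3 h (circles), AMPH blood at 3 h (triangles), EIH blood at 1 day (diamonds) and EIH choroid plexus at 3 h (squares). The 3 h blood effects of EIH and AMPH lie side by side, and at 1 day Hsph1, Hsp90aa1 and Dnajb1 were still called higher. In choroid plexus Hspa1b, Hspb1, Hmox1, Atf3, Hsph1, Hsp90aa1 and Dnaja1, among others, lie above 0. Cd8a and Mmp8 are not raised there.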

How the data were processed

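Single-colour Agilent arrays of 11 groups of 4 were deposited as 1 value for each of 14055 probes and 44 arrays. The deposited intensity values are on a linear scale, normalized by the authors; their quantiles agree within each of 2 sets, 24 arrays of 3 h and 20 of 1 day. Neither the method nor the scanner is named, both being not given in the sources used here. Blank cells were left as missing, and why cells are blank is not given either.

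Values were turned into log2 (floor 1, which no value fell below). Of the probes, 12926 had 1 gene symbol, none had several and 1129 had none, and these were left out. Symbols came from the platform annotation and were updated through RefSeq by accession (11481), as current symbols (1363) or by synonym (78), with 4 kept as given. Of 10412 genes 2210 had several probes, and the brightest was used. Tests needed 2 or more values in every group compared. Group means over the 24 blood arrays (44 for the tissue comparison) were fitted with limma 3.58.1 in R 4.3.3, with eBayes moderation and Benjamini-Hochberg adjustment over all genes, threshold 0.05, and 95% intervals from the same fit. The fits were tested on simulated data.

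The members and lists were chosen with earlier results of these data known. Genes were named by a rule: the 12 largest rises and falls whose groups do not overlap, up to 4 members of each list, a set of marker genes, and the 6 largest differences each way in the other comparisons. These rankings by size took called genes only and left out predicted loci and genes with too few values in a group. Further called list members, Cirbp, Rbm3, Alb, Pf4, Tsnax, Dnaja4 at 1 day and the genes named only for a promoter motif or another probe were named after their values were seen. Replicates are numbered in accession order and pair nothing. Alternatives covered scaling, filters, moderation, array weights, arrays in the fit, probe choice, a fold minimum, a test without moderation, and each array left out in turn.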

Additional observations from a re-analysis of the deposited data

Results flagged for a closer look

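Among the named genes, 25 values lay far from the other 3 of their group by Dixon's test, in 510 groups of 4 values checked, of which chance flags about 5%. EIH replicate 1 held 9 of them. Its log2 intensity stood apart for F3 (7.58, the other 3 at 10.80 to 11.44), Hsp90aa1 (12.72, the other 3 at 14.84 to 15.21), Hspa1b (14.37, the other 3 at 15.94 to 15.99), Hspb1 (11.06, the other 3 at 11.97 to 12.14), Hspe1 (13.03, the other 3 at 14.92 to 15.16), Hsph1 (10.94, the other 3 at 13.71 to 13.94), Nos2 (7.68, the other 3 at 10.34 to 10.88), Sod1 (12.79, the other 3 at 13.52 to 13.66) and Tsc22d3 (13.05, the other 3 at 12.17 to 12.31). For the 5 chaperone genes among these, EIH replicate 1 was still above every saline rat. In the same rat the liver plasma protein list was 2.72 above the saline mean, and the part of this in the results was not tested. In EIH replicate 2 the value of Nlrp3 (7.92, the other 3 at 8.70 to 8.84) stood apart, and in EIH replicate 3 those of Acads (9.56, the other 3 at 9.31 to 9.35) and Fbln1 (11.26, the other 3 at 11.53 to 11.57).

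In saline replicate 1 the values of C1qb (9.07, the other 3 at 9.56 to 9.60), Cxcr4 (10.84, the other 3 at 11.57 to 11.68), Ddit3 (8.68, the other 3 at 9.27 to 9.37), Ier3 (7.68, the other 3 at 8.07 to 8.13) and RT1-Da (13.56, the other 3 at 13.02 to 13.11) stood apart. In saline replicate 2, the rat with high salivary gland genes, they were those of Csf2rb (6.92, the other 3 at 5.74 to 5.78), Fbln1 (11.06, the other 3 at 6.43 to 7.07), Itgae (9.67, the other 3 at 9.37 to 9.42) and Klf4 (10.27, the other 3 at 10.72 to 10.76). Saline replicate 3 stood apart in Fcgr1a (12.70, the other 3 at 12.33 to 12.37) and Fosl1 (5.98, the other 3 at 6.27 to 6.30), and saline replicate 4 in Bmal1 (8.39, the other 3 at 8.29 to 8.30) and Cd8a (10.15, the other 3 at 10.68 to 10.78).

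The interaction test separated the EIH effect at 3 h from that at 1 day, with a more positive effect at 3 h, for Defa5 (6.32 ± 1.30), Hspa1b (6.18 ± 1.41), Hcar2 (5.70 ± 0.94), Zfand2a (5.62 ± 1.11), Dcdc2 (5.56 ± 1.25), Usp31 (5.35 ± 1.18), Hspb1 (4.51 ± 0.97), Hspd1 (3.07 ± 0.85), Hspe1 (2.64 ± 0.64) and Dnaja1 (2.25 ± 0.39). It was more negative at 3 h for Ets1 (-3.99 ± 1.09), Ap3m2 (-3.96 ± 1.05), Klhl8 (-3.93 ± 0.84), Jup (-3.84 ± 0.78), Cyp4f5 (-3.79 ± 0.55), Mterf2 (-3.59 ± 1.01), Tsnax (-2.43 ± 0.37), RT1-Da (-2.28 ± 0.49) and Cd8a (-2.21 ± 0.41). All values are differences of log2 effects ± SE that passed the adjusted threshold in limma.

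Between blood and choroid plexus the interaction test gave a more positive EIH effect in blood for Nos2 (4.93 ± 0.79), Cdc42ep2 (4.66 ± 0.81), Zfand2a (4.61 ± 0.89), Car4 (4.55 ± 1.41), Ifitm6 (4.50 ± 1.29), Serpinb11 (4.47 ± 1.18), F3 (4.02 ± 0.82), Hsph1 (3.47 ± 0.82), Hsp90aa1 (2.67 ± 0.71), Dnaja1 (1.98 ± 0.41) and Hspa8 (1.80 ± 0.38). The effect in blood was more negative for Ccl20 (-4.23 ± 0.85), Ephb6 (-3.71 ± 0.58), Cbx7 (-3.37 ± 0.53), Ets1 (-3.25 ± 0.88), Mia (-3.17 ± 0.63) and Alkbh2 (-3.09 ± 0.70).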

How the results depend on the processing

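Of 247 named genes called in EIH against saline blood, 133 kept direction and call under every alternative, and 114 lost the call, or changed sign on another probe, under at least 1. The cause was not tested. With all arrays kept, the call ended under at least 1 setting other than the probe choice for 72 genes: Acaa1a, Akap1, Ap3m2, Atf6, Bcl11b, Bcl2, Birc3, Bmal1, C1qa, Casp1, Cbx7, Ccl20, Ccr7, Cd247, Cd3d, Cd3e, Cd55, Cd8b, Csf2rb, Ctsg, Cxcl10, Cxcr3, Cxcr4, Cycs, Dhcr7, Eno3, Erap1, Errfi1, Ets1, Fbln1, Fcgr3a, Fpr1, Gadd45a, Gzmk, Gzmm, Hmox2, Hspa12a, Ier2, Ifi35, Ifi44, Igtp, Il10ra, Irf1, Kif20a, Klrd1, Lat, Lef1, Maff, Mb, Mvk, Nipsnap1, Osm, Pfkm, Psma4, Psmb8, Psmd5, RT1-N3, Scd, Serpinh1, Slc25a20, Slc2a1, Sox18, Stub1, Tcp1, Tfrc, Thbd, Trib3, Tsnax, Vcan, Vegfa, Zap70 and Zfp36. For 31 more it ended when 1 array was left out: Anxa1, Ass1, Btg1, Cfp, Chi3l1, Ctsw, Dnaja4, Fasn, Fcmr, Gpnmb, Hsf1, Hspa14, Hspa5, Ifitm6, Itgam, Klf4, Lypd3, Lyz2, Nlrp3, Oasl, Psma7, Psmb3, RT1-Ba, RT1-DOa, Rpl27, Rps13, Saa4, Slpi, Tnnt3, Ubash3a and Uqcrc2. For 11 more it ended or turned only on another probe or the mean over probes: C1s, Camp, Cd6, Chordc1, Csta, Ephb6, Hspa1b, Klf10, Ndrg1, Rsad2 and Scd2. Sign changes among the alternatives came from other probes, for Bcl11b (0.486), Csta (-0.446), Rsad2 (0.348) and Scd2 (0.62 and 0.022), and another probe for Akap1, with too few saline values for a test, was also positive (0.424). Among the lists, falls in MHC class I presentation (5) numbered 2, interferon-induced genes (4) 2, cytokine receptors (4) 2 and NK genes (7) 3 with an equal-variance test, NK falls 4 after quantile normalization, and lipid synthesis falls (5) 2 in a fit of the compared groups alone. The total of 1250 called genes was 1956 with array weights and 1072 to 1426 under the other alternatives that kept these arrays, 836 to 1184 with 1 EIH or saline array of 3 h left out, and 1518 without 1-day saline replicate 4, which has the most blank cells. EIH against AMPH (4 genes) gave 18 with dim genes left out, 18 with genes measured on every array, 18 with an intensity trend and robust spread, 1 in a fit of the compared groups alone, 0 in a fit of the 3 h arrays (981 at an unadjusted p under 0.05), 2 with an equal-variance test, and 1 to 11 with 1 array left out. The time comparison (859) gave 1625 with array weights and 457 to 899 with 1 array left out. The tissue comparison (602) gave 1439 with array weights, 1018 in a fit of the compared groups alone, 969 with the 3 h arrays, 1195 with an equal-variance test, 404 to 787 with 1 array left out, and 771 with shared rats as a random block. No paired analysis was possible because replicates are numbered in accession order and no label pairs rats across treatments. Values at the top of the scale are lower limits of the brightness, which among the named genes holds for Hspa1b on 3 EIH arrays, for Alas2 on all 8 arrays and for Lyz2 on 1 EIH array. Dim genes have more blank cells, and 519 genes could not be tested.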
